A study of Mus musculus with 2 samples.

Results

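The SINE RNAs of mouse brain were described here by subfamily. Members were all classes with a SINE label in the lists of 2 brain libraries, and a class missing from a list counted as 0 reads. These were 10 of the 60 classes listed in all: B2_Mm1a, B2_Mm1o, B2_Mm1t and B2_Mm2 with the label B2, B1_Mus1, B1_Mus2 and PB1 with the label Alu, B4A and RSINE1 with the label B4, and ID4 with the label ID. Total RNA of brain from adult male C57BL/6J mice was sequenced by melRNA-seq, a method that reads whole RNAs of medium length (115 to 255 nt per the labels). The RppH(+) library came from RNA treated with RNA 5′ pyrophosphohydrolase (RppH) for 1 h at 37 °C, and the RppH(−) library from RNA that was not. The 5′ adaptor joins only RNAs with a monophosphate, the end that RppH leaves on RNAs that had a triphosphate or a cap. With 1 library per condition, differences could not be checked on replicates, and the tests are of these libraries rather than of the conditions. How many mice gave the RNA was not given in the sources used here. The lists hold classes of non-coding RNAs and of repeats, not the mRNAs of single genes, so that the tissue could not be checked against its markers.

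SINEs are short retrotransposons without coding capacity. RNA polymerase III (Pol III) transcribes them from a promoter inside the element, and the RNA is copied into DNA by proteins that L1 LINEs encode. B1 descends from the 7SL RNA of the signal recognition particle, and PB1 is a proto-B1, an older monomer of that lineage. B2 and ID descend from tRNA, and B4 joins ID-like to B1-like sequence. Within B2, the B2_Mm1 subfamilies are younger than B2_Mm2. As a Pol III RNA begins with a triphosphate, intact SINE RNA is open to ligation only after RppH.

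The deposited level of a class is its reads per 1000000 reads of 5.8S rRNA, the rRNA that is cut from a precursor and has a monophosphate. Whole reads were recovered from these values, with 122146 reads of 5.8S rRNA when RppH was left out and 83291 when it was used. In this unit 1 read weighs 8.19 without RppH and 12.0 with RppH. A level of 0 was read as anything up to 3 reads, which is 24.6 without RppH and 36.0 with it. Tests between the libraries are Fisher's exact test, two-sided, and their p is called an exact p. Intervals (95%) cover counting error only, as PCR copies are not independent molecules.

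The SINE reads of the RppH(+) brain library were mostly B2 and PB1. Both libraries were selected for RNAs of 115 to 255 nt, and how far whole RNAs of each SINE class lie inside this window was not tested. The make-up given here is therefore of reads, not of SINE RNA in the tissue. SINE reads numbered 3 without RppH and 57 with RppH, 0.00243% (Wilson interval 0.000826 to 0.00714%) and 0.0270% (0.0209 to 0.0350%) of all listed reads. In the RppH(+) library 4 of the 10 classes had more than 3 reads, and these 4, PB1, B2_Mm2, B2_Mm1t and B2_Mm1o, held 48 of the 57 reads. A further 3 classes had a single read each. With RppH 9 classes were listed, without it 3, and 2 classes, B2_Mm1o and B2_Mm2, were in both lists.

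**Figure D1:**
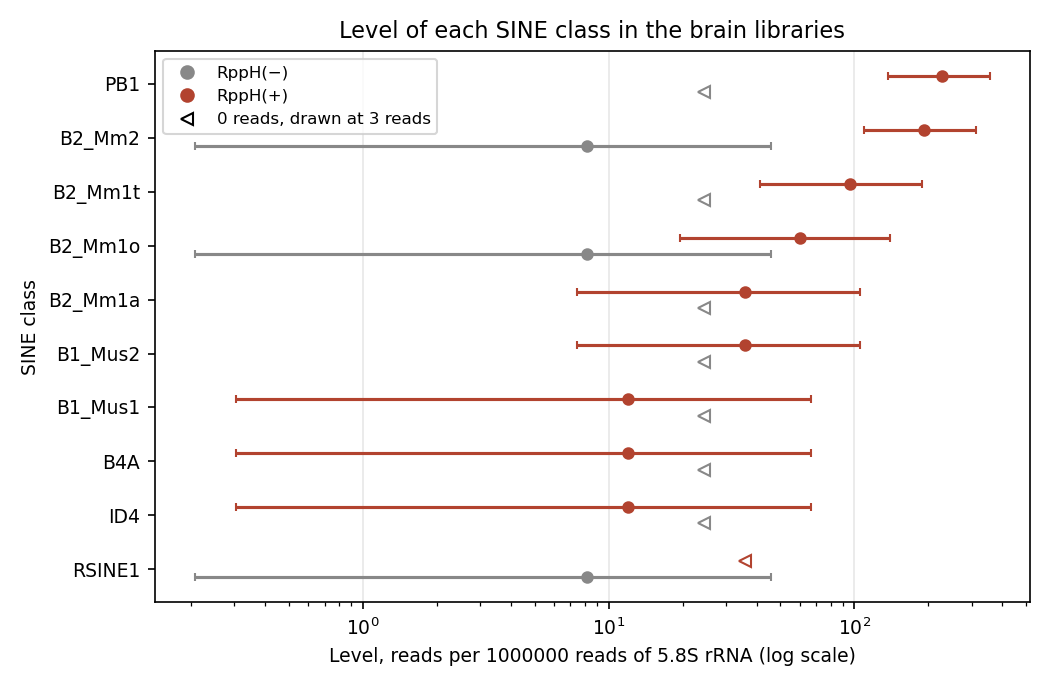
Level of each of the 10 SINE classes in reads per 1000000 reads of 5.8S rRNA, on a log axis, in the RppH(+) library (red) and the RppH(−) library (grey), 1 library each. Points are levels with 95% exact intervals, open triangles are classes with 0 reads drawn at the level of 3 reads, and for PB1, B2_Mm2 and B2_Mm1t the RppH(+) interval begins above the level of 3 reads without RppH, 24.6.

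PB1 had the most reads of the single SINE classes in the RppH(+) library, within counting error of B2_Mm2 (ratio 1.19, 0.578 to 2.47). PB1 reads numbered 0 without RppH and 19 with RppH, and ranked 14 among the 49 classes listed with RppH. Its level with RppH was 228 reads per 1000000 5.8S reads (exact Clopper-Pearson interval 137 to 356), or 509 per 1000000 reads of 5S rRNA (307 to 796). It made up 33.3% of the SINE reads.

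B2_Mm2, the older B2 subfamily, followed with 1 read without RppH and 16 with RppH. The levels were 8.19 (0.207 to 45.6) and 192 (110 to 312) reads per 1000000 5.8S reads. With RppH this was 429 (245 to 697) per 1000000 5S reads. The intervals of the 2 libraries did not overlap.

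The younger B2_Mm1 subfamilies were spread over 3 classes. B2_Mm1t had 0 and 8 reads, a level with RppH of 96.0 (41.5 to 189) per 1000000 5.8S reads. B2_Mm1o had 1 and 5 reads, with levels of 8.19 (0.207 to 45.6) and 60.0 (19.5 to 140). B2_Mm1a had 0 and 3 reads, and its level with RppH was 36.0 (7.43 to 105). For B2_Mm1o and B2_Mm1a a difference between the libraries was not detectable at this depth.

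B1 was sparse. For B1_Mus2 there were 0 reads in the RppH(−) and 3 in the RppH(+) library, a level of 36.0 (7.43 to 105) per 1000000 5.8S reads. B1_Mus1 had 0 and 1 read. Together the 2 classes stood at 48.0 (13.1 to 123) per 1000000 5.8S reads and 107 (29.2 to 275) per 1000000 5S reads in the RppH(+) library.

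The B4 and ID families were at the edge of detection in these libraries. Whether their whole RNAs lie inside the size window of 115 to 255 nt was not tested, so their few reads give no level in the tissue. B4A had 0 reads without RppH and 1 with RppH, and RSINE1, a B4 relative, had 1 and 0 reads. RSINE1 was the single SINE class listed only without RppH. ID4 had 0 and 1 read. The level of a single read with RppH, 12.0 per 1000000 5.8S reads, has an interval from 0.304 to 66.9.

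ID elements are related to Bc1, the gene of the brain cytoplasmic RNA BC1, a Pol III RNA of rodent neurons whose 5′ part is an ID sequence. Its transcript in GENCODE M21 is printed as an example of an annotated sequence related to ID, because no consensus sequence of the 10 classes was available for use here. How much of this transcript the Pol III RNA covers was not tested. In GRCm38 the gene lies at chr7:144914470-144914637 on the plus strand and is annotated as a long intergenic non-coding RNA of 168 nt. It is shown 5′ to 3′ as DNA, and the capitals mark the single match to the A box, part of the internal Pol III promoter, at bases 14 to 24.
Bc1: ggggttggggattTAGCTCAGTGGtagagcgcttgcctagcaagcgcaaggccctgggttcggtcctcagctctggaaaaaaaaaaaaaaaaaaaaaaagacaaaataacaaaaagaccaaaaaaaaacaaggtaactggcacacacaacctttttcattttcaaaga
The A box was searched on both strands, and 21.7% of 135207 transcripts of GENCODE M21 have a match in their first 168 bases. The lists used here name no BC1 class, and the ID4 read was not assigned to a gene.

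Young and old B2 were equal in reads. The 3 B2_Mm1 classes together had 16 reads in the RppH(+) library and B2_Mm2 had 16, a ratio of 1 (exact interval 0.468 to 2.14). Of the 32 B2 reads, each therefore made up 50% (Wilson interval 33.6 to 66.4%). Without RppH each had 1 read. A difference of more than 2.14-fold in either direction lies outside the interval. By single class B2_Mm2 exceeded B2_Mm1o by 3.20-fold (1.12 to 11.2) and B2_Mm1a by 5.33-fold (1.53 to 28.6), whereas its ratio to B2_Mm1t, 2 (0.808 to 5.40), had an interval that included 1. Without B2_Mm1t the ratio of young to old B2 was 0.5, still inside the interval of the full ratio.

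B2 reads outnumbered B1 reads. The 32 B2 reads and 4 B1 reads of the RppH(+) library gave a ratio of 8 (2.84 to 31.1). Either part of B2 alone, B2_Mm2 or the B2_Mm1 classes together, was 4 times B1 (1.29 to 16.4). The level of B2 with RppH was 384 (263 to 542) per 1000000 5.8S reads and 858 (587 to 1211) per 1000000 5S reads. Without RppH B2 had 2 reads and B1 had 0, from which no order can be read.

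The order of B2 and B1-related reads depended on where PB1 was counted. PB1 alone was 4.75 times B1_Mus1 and B1_Mus2 together (1.58 to 19.2). When PB1 was counted with them, as its label Alu does, the ratio of B2 to this group fell to 1.39 (0.789 to 2.49), which includes 1. PB1 was not distinguishable from B2_Mm2 (ratio 1.19, 0.578 to 2.47), from the B2_Mm1 classes together (the same 16 reads and ratio) or from B2 as a whole, which was 1.68 times PB1 (0.926 to 3.14).

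In the order of levels in the RppH(+) library, PB1, B2_Mm2, B2_Mm1t, B2_Mm1o, then B2_Mm1a and B1_Mus2, then B1_Mus1, B4A and ID4, no neighbours differed beyond counting error. The ratios of neighbours were 1.19 for PB1 to B2_Mm2, 2 for B2_Mm2 to B2_Mm1t, 1.60 (0.462 to 6.22) for B2_Mm1t to B2_Mm1o, 1.67 (0.324 to 10.7) for B2_Mm1o to B2_Mm1a and 3 (0.241 to 157) for B1_Mus2 to B1_Mus1. Of the classes further apart, PB1 was 3.80 times B2_Mm1o (1.37 to 13.0), whereas its ratio to B2_Mm1t, 2.38 (0.993 to 6.27), had an interval that included 1.

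**Figure D2:**
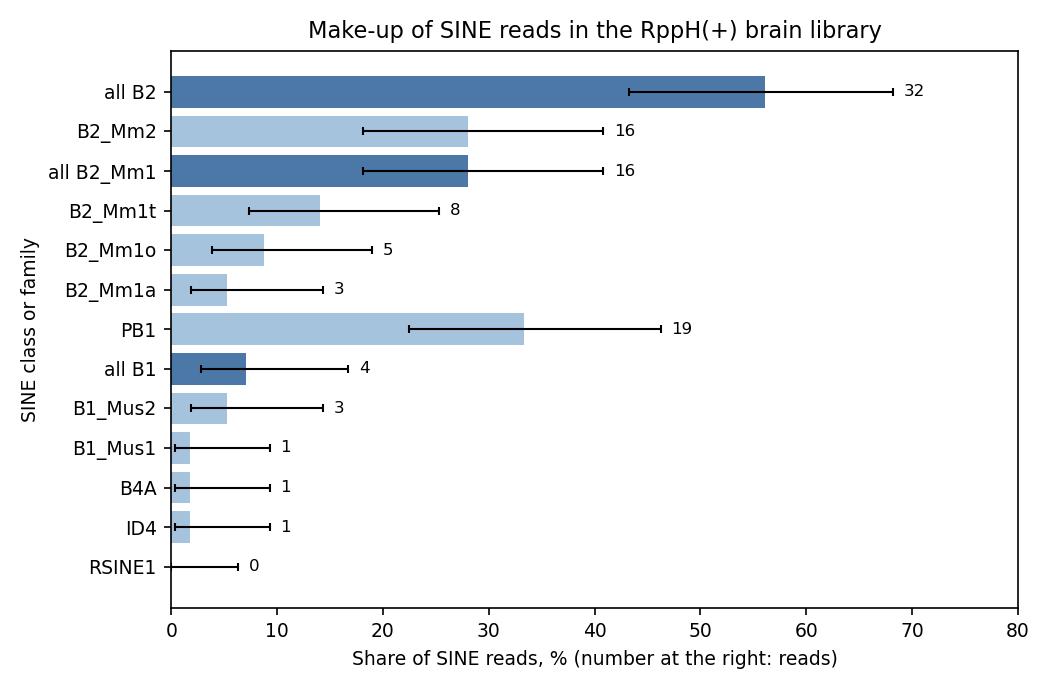
Share of the 57 SINE reads of the RppH(+) library in each class (light bars) and in families of several classes (dark bars), in percent from 0, with 95% Wilson intervals and the reads at the right. B2 holds 32 reads, in equal parts of 16 for B2_Mm2 and the B2_Mm1 classes, PB1 holds 19 and B1 holds 4.

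As shares of the SINE reads with RppH, B2_Mm2 and the B2_Mm1 classes each held 28.1% (18.1 to 40.8%). B2_Mm1t held 14.0% (7.29 to 25.3%), B2_Mm1o 8.77% (3.81 to 18.9%) and B2_Mm1a 5.26% (1.81 to 14.4%). PB1 and B1 together, the label Alu, held 40.4% (28.6 to 53.3%). RSINE1 had 0 of 57 reads, which allows a share of up to 6.31%. When PB1 was left out, the B2 share was 84.2% and those of B2_Mm2 and of the B2_Mm1 classes were 42.1% each.

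The make-up did not differ detectably between the libraries, but only 3 SINE reads without RppH stand behind this. B2 had 2 of 3 SINE reads without RppH and 32 of 57 with RppH. The ratio of B2 to other SINE reads was 0.640 times as high with RppH (exact interval 0.0104 to 13.0, exact p = 1). Without PB1 it was 2.67 times as high (exact p = 0.439), so the direction of this ratio depends on PB1.

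Against 5.8S rRNA, 3 SINE classes were called higher with RppH and 0 lower. A class was called when its exact p, adjusted by Benjamini-Hochberg over the 59 classes besides 5.8S, was under 0.05. Of all 59 classes 22% were higher and 1.69% lower, so 3 of 10 is near the background. Taking its 19 reads as they are, PB1 was at least 9.29-fold higher, computed against 3 reads. With the counting error of both libraries the exact interval of the odds ratio began lower, at 6.84 (adjusted exact p = 1.91e-07). B2_Mm2 was 23.5-fold higher (3.65 to 984, adjusted exact p = 2.55e-05), or 7.82-fold with its 1 read set to 3. B2_Mm1t, computed in the same way, was at least 3.91-fold higher, with an exact interval that began at 2.50 (adjusted exact p = 0.00308), and relative to all listed reads it no longer passed (adjusted exact p = 0.105). B2_Mm1o, at 7.33-fold (0.820 to 347), did not pass (adjusted exact p = 0.171). The other 6 classes had 3 reads or fewer in each library, and no ratio was formed. Relative to all listed reads 2 of 10 SINE classes were called higher, PB1 and B2_Mm2, against 20.3% of the 59 classes. The same 2 were called when p was adjusted over the 16 classes with at least 10 reads, of which 75% were higher and which leave B2_Mm1t out.

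By family, B2 was 23.5-fold higher relative to 5.8S rRNA (5.99 to 202), or 15.6-fold with its 2 reads set to 3. For B1, with 0 and 4 reads, the interval began at 0.968, and the unadjusted exact p was 0.0270. For PB1 and B1 together it began at 8.43. All SINE classes without PB1 were 18.6-fold higher (5.89 to 94.1).

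The choice of rRNA turned the direction of the SINE point value. 5S rRNA, itself a Pol III RNA with a triphosphate, went from 602 reads to 37300 with RppH, and was 90.9-fold higher relative to 5.8S (83.8 to 98.7). Relative to 5S, the SINE level was 4983 reads per 1000000 5S reads (1025 to 14634) without RppH and 1528 (1157 to 1980) after it. The ratio was 0.307 (0.0993 to 1.54, exact p = 0.0708), where relative to 5.8S it was 27.9. The difference relative to 5S did not pass the threshold and its interval included 1.

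Without PB1 the SINE ratio relative to 5S was 0.204 (0.0646 to 1.04, unadjusted exact p = 0.0275). For B2 it was 0.258 (0.0656 to 2.23, exact p = 0.102), with the same point value for B2_Mm2 and for the B2_Mm1 classes. For PB1, 0 reads beside 602 of 5S gave a lower limit of 0.0751, which leaves its direction unknown. Relative to 5S, 0 SINE classes were higher by Fisher's exact test, also at an unadjusted p under 0.05, against 6.9% of the 58 classes tested. RSINE1 was lower (adjusted exact p = 0.0461), a call that rests on 1 read, and 27.6% of all classes were lower.

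**Figure D3:**
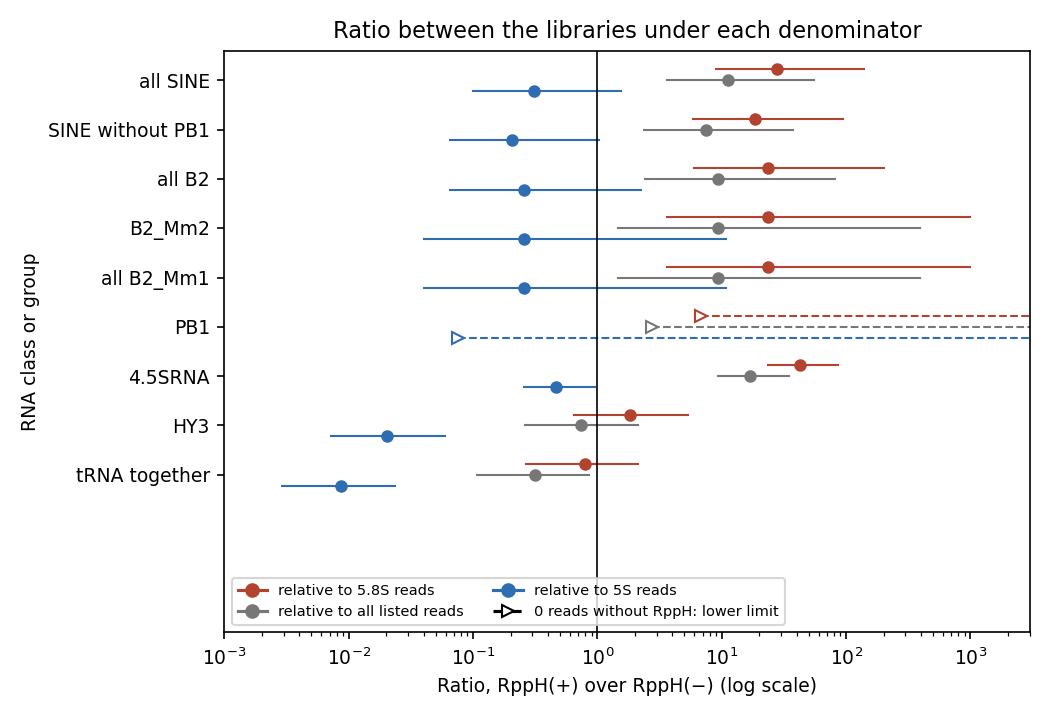
Ratio of the RppH(+) to the RppH(−) library, on a log axis, relative to 5.8S reads (red), all listed reads (grey) and 5S reads (blue), 1 library per condition. Points are ratios of reads, lines 95% exact intervals, and open triangles with dashed lines give the lower limit for a class with 0 reads without RppH. The all SINE point lies at 27.9 relative to 5.8S and at 0.307 relative to 5S, where its interval (0.0993 to 1.54) crosses 1 and PB1 has only a lower limit.

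Other RNAs that Pol III makes were read beside the SINEs in the same library. Of 10 such names searched, 5S, 4.5SRNA, HY1, HY3 and U6 were listed. The libraries were selected for RNAs of 115 to 255 nt, and how far each of these RNAs lies inside this window was not tested. The ratios below are therefore of reads, not of levels in the tissue. 4.5SRNA, a rodent RNA with sequence related to B1, was above the SINEs with RppH, where SINE reads were 0.179 times 4.5SRNA reads (0.132 to 0.237). Without RppH they were 0.273 times as many (0.0489 to 1.03), an interval that includes 1. The Y RNA HY3 had 8 and 10 reads, and SINE reads were 0.375 times (0.0641 to 1.56) and 5.70 times (2.88 to 12.5) as many. U6 snRNA had 6 and 1 read, and the SINE ratio was 0.50 (0.0809 to 2.34) and 57 (9.83 to 2290). HY1 had 1 read in each library, and the SINE ratio was 3 (0.241 to 157) and 57 (9.83 to 2290).

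The tRNA classes had 13 reads in sum without RppH and 7 with RppH. For tRNA, too, the place of whole RNAs in the size window of 115 to 255 nt was not tested. SINE reads were 0.231 times (0.0422 to 0.840) as many as tRNA reads before RppH and 8.14 times (3.71 to 21.2) after it. B2 alone went from 0.154 times (0.0169 to 0.680) to 4.57 times (1.98 to 12.3). The intervals of the 2 libraries did not overlap for tRNA, HY3 or U6, and overlapped for 4.5SRNA and HY1.

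**Figure D4:**
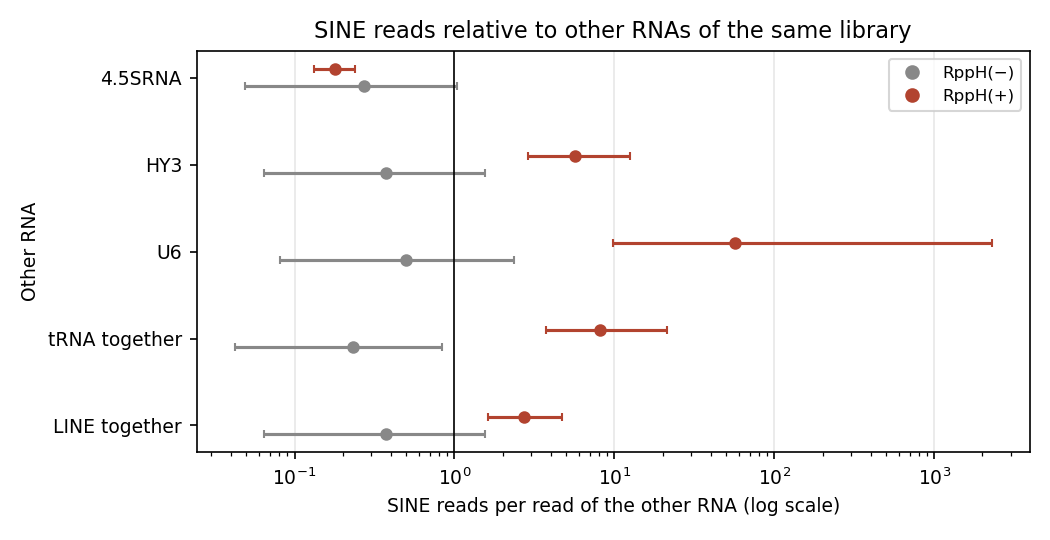
SINE reads per read of 4.5SRNA, HY3, U6, the tRNA classes together and the LINE classes together, on a log axis, in the RppH(+) library (red) and the RppH(−) library (grey), 1 library each, with 95% exact intervals. Reads are of libraries selected for RNAs of 115 to 255 nt. With RppH the SINEs lie above all but 4.5SRNA, and without RppH every point drawn lies below 1. HY1, with 1 read in each library and a ratio of 3 without RppH, is not drawn.

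PB1 was set against 4.5SRNA because both are related to B1. With RppH there were 0.0596 PB1 reads (0.0354 to 0.0946) for each of 319 reads of 4.5SRNA. Without RppH there were 0 PB1 reads beside 11 of 4.5SRNA, which allows up to 0.398. The 11 reads of 4.5SRNA without RppH are too few to show whether this proportion differed between the libraries. The lists hold no read sequences, and how far reads of either RNA were assigned to the other was not tested.

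Among reads of mobile elements, SINEs made up 20% (Wilson interval 7.05 to 45.2%) of 15 reads without RppH and 68.7% (58.1 to 77.6%) of 83 reads with RppH. LINE classes made up 53.3% (30.1 to 75.2%) and 25.3% (17.2 to 35.6%). The ratio of SINE reads to LINE, LTR and DNA reads rose from 0.250 (0.0453 to 0.926) in the RppH(−) library to 2.19 (1.36 to 3.63), which is 8.77 times as high (2.07 to 51.3, exact p = 8.54e-04). In the RppH(+) library 21 LINE reads fell in 17 classes, 14 of them with a single read and none with more than 3, and 57 SINE reads fell in 9 classes. In the RppH(−) library 8 LINE reads fell in 6 classes and 3 SINE reads in 3. A difference in this spread was not tested.

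The non-SINE classes whose ratio between the libraries was nearest to that of all SINEs, among 14 with at least 10 reads in both libraries together and with counts up to 3 set to 3, were the snRNA U7 (a log2 distance of 0.28), 4.5SRNA (0.61) and U13 (0.97). U7 and U13 had 1 read each without RppH, and their order rests on setting it to 3: as ratios of reads U7 stood at 101, and U13 and 4.5SRNA at 42.5 each, so that U7 was further from the 27.9 of all SINEs than either. U7, with 69 reads, and U17, with 47, were nearest to the SINE total in reads with RppH. This likeness is over 2 libraries only.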

How the data were processed

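The authors trimmed reads with cutadapt and assigned them to RNA and repeat classes with repeatmasker; versions are not given in the sources used here. The methods keep SINE reads that begin near the start of the element, and whether the listed reads had passed this step is not stated. The deposited value is a normalized score, reads per 1000000 reads of 5.8S rRNA, written as whole numbers. Whole reads were recovered by trying 5.8S totals from 1000 to 400000, with decimals taken as dropped. All 33 and all 49 values were whole at 36 and 4 totals, the smallest, 122144 to 122149 (122146 used) and 83291, and multiples of these. The smallest were taken, on which every read number and interval rests, and the listed reads were then 123532 and 210992. On simulated data, 8 of 8 libraries were recovered. These were made with decimals dropped and with low counts added, so they cannot check the rounding or the choice of the smallest total. Of 200 simulated classes all 40 raised 10-fold passed Fisher's exact test, as did 4 of the 160 left alone. The simulated classes were given higher mean reads without RppH than any SINE class had. Their result therefore does not show the power for SINE classes.

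Ratios between libraries have exact intervals of the conditional odds ratio, ratios within a library Clopper-Pearson and shares Wilson intervals (SciPy 1.17.1, NumPy 2.4.6, Python 3.11.15, Matplotlib 3.10.9). For ratios between libraries, counts up to 3 were set to 3, and the ratio of reads is given for counts of 1 to 3. Named were all SINE classes, listed Pol III RNAs and the nearest classes. Members and lists were chosen with earlier results of these data known. Alternatives were other denominators, counts, pseudocounts, class sets and intervals. 5S and 5.8S gene positions were not used here.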

Additional observations from a re-analysis of the deposited data

How the results depend on the processing

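Of 62 alternative values, 50 kept their direction and call or stayed within counting error or, for counts of values or classes, within 1.5 times. Part of these could not change. A pseudocount or another smallest count leaves the exact p as it was, and another interval leaves the share as it was. Deposited values hold the same reads, and multiplying all reads keeps the ratio. The 50 are therefore no measure of how stable the results are. With 5S reads as the denominator, the ratio between the libraries reversed for all SINEs (0.307, with an interval that includes 1), and also for B2_Mm1o and B2_Mm2. Their ratios of reads were 0.0807 (0.00901 to 3.82) and 0.258 (0.0400 to 10.8), both with 1 in the interval, and setting the 1 read to 3 lowers them to 0.0269 and 0.0861. With 5S, 0 SINE classes were higher by Fisher's exact test in place of 3. For PB1 and B2_Mm1t, with 0 reads without RppH, 5S gave no direction. Over the other alternatives the SINE ratio ran from 11.1 to 27.9. Without PB1, the B2 share was 84.2%, those of B2_Mm2 and of the B2_Mm1 classes 42.1% each, the SINE level 456 per 1000000 5.8S reads and 1019 per 1000000 5S reads, and the ratio of B2 to other SINE reads between libraries reversed to 2.67. With PB1 counted as B1, B2 over B1 was 1.39. These follow from the 19 PB1 reads. The SINE classes called higher were 2 in place of 3 relative to all listed reads (20.3% of all classes) and when p was adjusted over classes with at least 10 reads (75% of these). Relative to all listed reads B2_Mm1o, not called, stood at 0.976 with its 1 read set to 3 and at 2.93 as a ratio of reads. If values had been rounded, 31 of 33 and 48 of 49 would be whole. The 3 SINE reads without RppH limit every ratio between the libraries. No paired analysis was possible because only 1 library stands for a condition.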
